A study of Rattus norvegicus with 12 samples.

Results

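The 6 genes described here encode metabotropic glutamate receptors, Grm2, Grm3, Grm4, Grm5, Grm7 and Grm8. They were found on the arrays through the RefSeq accession of each probe, and they are 6 of the 15154 named genes among 30367 probes. Grm4 had 2 probes, of which the brighter is reported, and the other 5 genes had 1 probe each. RNA came from primary hippocampal cultures of Wistar rat embryos at embryonic day 18 or the day after, kept for 14 to 15 days. OGD cultures spent 2 h in glucose-free saline in an anaerobic chamber (oxygen and glucose deprivation, a culture model of ischemia). Control (Ctrl) cultures spent the same time in a like buffer with glucose under air and CO2. Both were then returned to conditioned medium for 7 h or 24 h of recovery, giving the groups Ctrl 7h, OGD 7h, Ctrl 24h and OGD 24h with 3 independent cultures each. The cultures carried no genetic change, and they hold neurons together with some glia.

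Metabotropic glutamate receptors are G protein-coupled receptors that turn glutamate release into slow changes of excitability and transmitter release. The group I receptor encoded by Grm5 lies mainly around postsynaptic sites and acts through Gq, phospholipase C and the release of stored calcium. Group II (Grm2 and Grm3) and group III (Grm4, Grm7 and Grm8) couple to Gi/o, lower cyclic AMP and restrain transmitter release, and Grm3 is also made by astrocytes. During ischemia extracellular glutamate rises, and these receptors are known as modulators of the injury that follows.

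The promoters of Grm5, Grm7 and Grm8 were present in the RefSeq promoter table (3 of 6 genes matched, build GRCr8). They are shown because the response to OGD was read here as a change in RNA. Each sequence is a stretch of 100 bases before the annotated start of transcription, from -100 to -1 for Grm5 and Grm7 and from -160 to -61 for Grm8, where it was placed to hold the motif found. They are written 5′ to 3′ on the strand of the gene, with capitals marking the motifs found. The Grm5 stretch is at chr1:150733653-150733752 on the plus strand, the Grm7 stretch at chr4:145286626-145286725 on the plus strand and the Grm8 stretch at chr4:57687567-57687666 on the minus strand.
Grm5: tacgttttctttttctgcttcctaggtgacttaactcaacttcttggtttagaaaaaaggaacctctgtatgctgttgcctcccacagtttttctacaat
Grm7: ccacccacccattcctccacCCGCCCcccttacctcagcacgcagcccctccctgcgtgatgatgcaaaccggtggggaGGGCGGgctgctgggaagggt
Grm8: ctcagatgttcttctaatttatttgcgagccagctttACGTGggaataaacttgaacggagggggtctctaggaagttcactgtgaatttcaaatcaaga
The 250 bases before each start were searched on both strands for 5 motifs, of which the CRE half-site and the hypoxia core can overlap. The GC box GGGCGG was found at -80 (minus strand) and -21 (plus strand) of Grm7, and 30.5% of the 33469 rat promoters in the table hold it. The hypoxia response core ACGTG was found at -123 of Grm8, and 16.6% of all promoters hold it. Grm5 held none of the 5 motifs, and the letters of the CRE half-site TGACG (18.2% of promoters) and of the RE1 half-sites TTCAGCACC (0.305%) and GGACAG (18.2%) were in none of these 3 windows. The GC content was 36.4% for Grm5, 47.2% for Grm8 and 62% for Grm7, against a median of 51.2% over all promoters. These matches describe the letters only.

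RNA of each culture was hybridized to 1 one-color Agilent array. Values below are relative log2 signals, the log2 of a probe's intensity minus the median probe of the same array, so that 0 is the middle of the array. They compare one probe between arrays and do not rank receptors by abundance. The arrays had median intensities of 234 to 660, except for OGD 24h replicate 1 at 131, and 78.3% to 87.1% of spots were well above background. Each of the 6 slides carried the Ctrl and the OGD array of 1 time and replicate number. Arrays were split by how long before the last array of the same day they were scanned. OGD 7h replicates 1 and 2 and OGD 24h replicate 1 lay beyond a set gap, and the other 9 did not. The named arrays hold no control and are called the earlier scan session below, the other 9 the later one. The labels name no session. The 10 neuron markers (such as Rbfox3, Map2 and Syt1) were well above background on all 12 arrays.

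At 7 h of recovery the estimate of every receptor gene was below control, except that Grm3 and Grm8 were above it with normexp background correction, Grm3, Grm5 and Grm8 with the scan session as a covariate and Grm8 with the slides of replicates 2 and 3 alone. At that time 0 of 6 reached an unadjusted limma p under 0.05 in either direction. Over all probes 7.03% were lower and 4.79% higher at that threshold. The median change of the 6 genes was -0.51 on the log2 scale, against -0.06 over all probes. At 24 h 3 of 6 genes (Grm2, Grm3 and Grm7) were lower at an unadjusted p under 0.05 and 0 were higher, where 6.19% of all probes were lower and 7.51% higher. The count of lower genes was 0 with the methods' t-test, with normexp background correction and without Ctrl 24h replicate 1, and 1 with limma on each time alone. The median change was then -0.74 against 0.01 over all probes. No receptor gene passed Benjamini-Hochberg adjustment at either time, and neither did any other probe in this fit, where 3590 probes at 7 h and 4160 at 24 h had an unadjusted p under 0.05. The methods of the study ask for a t-test and a 2-fold change, and no receptor gene met both at either time. In the limma fit Grm3 at 24 h exceeded 2-fold (change -1.65) through OGD 24h replicate 1, which was not well above background, and the change was -0.61 without that array and -0.31 with normexp. In these bulk samples fewer cells of a type and less RNA per cell cannot be told apart.

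**Figure D1:**
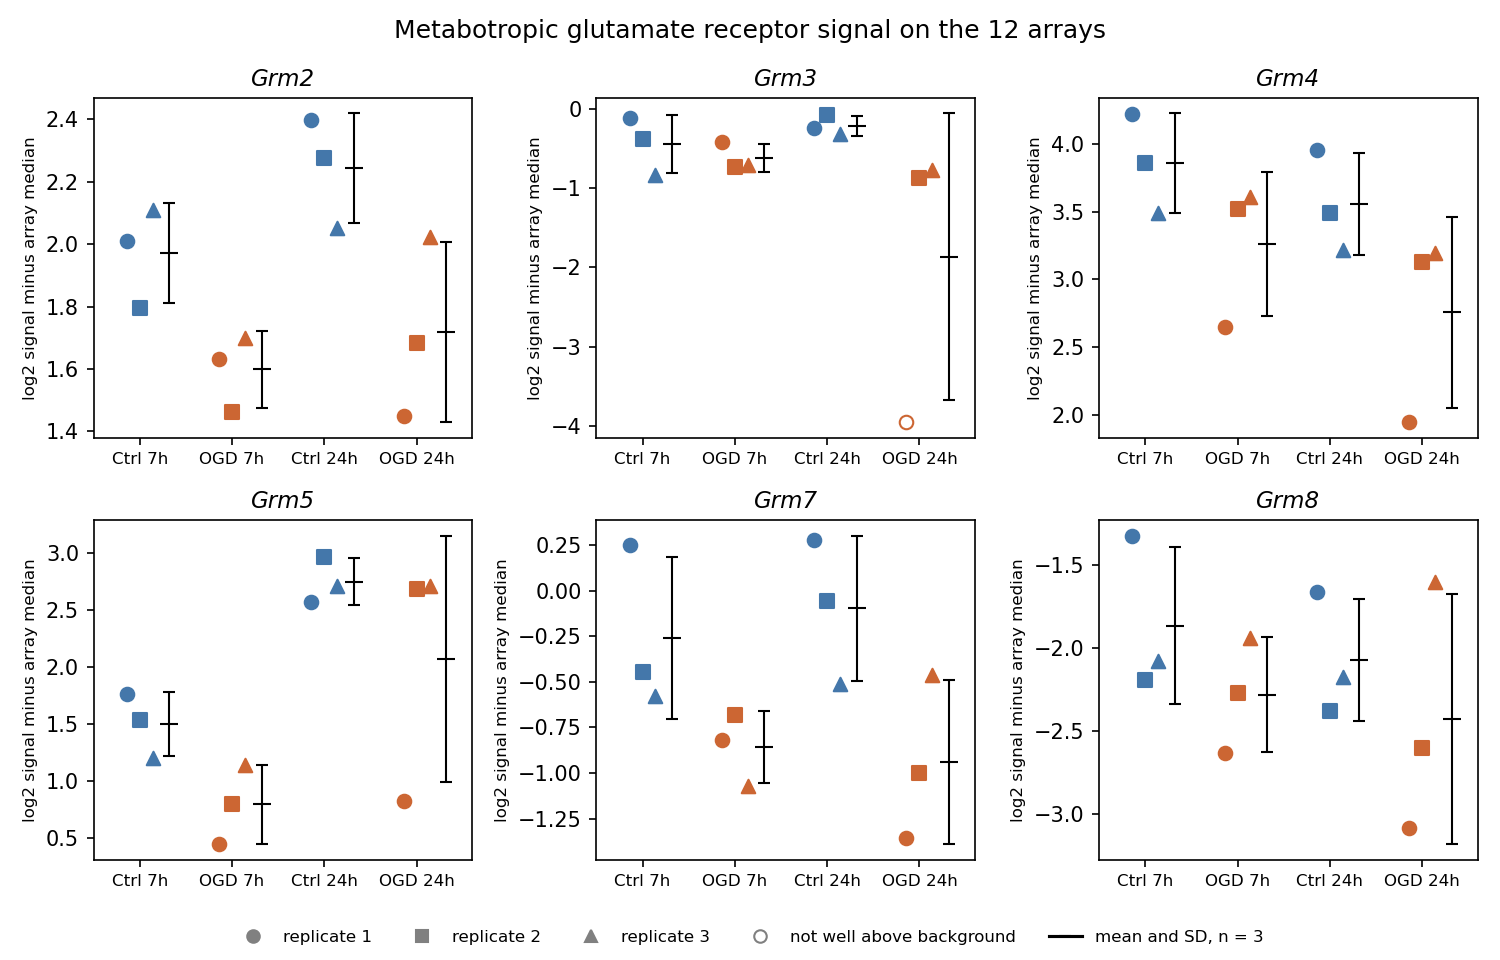
Relative log2 signal (log2 intensity minus array median, vertical axes of different range) of each receptor gene in the 4 groups. Circles, squares and triangles are replicates 1, 2 and 3, and black bars are the mean and SD of 3 arrays. The circle of OGD 24h is the lowest point of all 12 arrays in 5 of the 6 panels, and in the Grm5 panel the controls of 24 h lie above those of 7 h.

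Grm5, the Gq-coupled receptor of the set, read 1.76, 1.54 and 1.21 on the Ctrl 7h arrays of replicates 1, 2 and 3. The OGD 7h arrays read 0.44, 0.80 and 1.14. All 3 OGD arrays thus lay below all 3 controls, an order found for 15.5% of all probes at 7 h. The fitted change was -0.71 (SE 0.44, 1.63-fold lower, limma adjusted p = 0.533), and it did not pass the unadjusted threshold. The Ctrl 24h arrays read 2.57, 2.97 and 2.72 and the OGD arrays 0.83, 2.68 and 2.71. Replicates 2 and 3 of OGD 24h overlapped the controls, and the array that stands apart in intensity was far below. The change at 24 h was -0.68 (SE 0.44, limma adjusted p = 0.4995), and it was -0.05 without OGD 24h replicate 1.

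Among the group II receptors, Grm2 encodes a mainly presynaptic autoreceptor. Its Ctrl 7h arrays read 2.01, 1.80 and 2.11 and its OGD 7h arrays 1.63, 1.46 and 1.70. The groups did not overlap, as for 15.5% of all probes at 7 h. The differences within slides (-0.38, -0.33 and -0.41) were the most even of the set at 7 h. The change of -0.37 (SE 0.20, limma adjusted p = 0.479) did not pass the unadjusted threshold. The Ctrl 24h arrays read 2.40, 2.28 and 2.05 and the OGD arrays 1.45, 1.68 and 2.02. Again no OGD array reached a control, an order seen for 7.02% of all probes at 24 h, but replicate 3 was only 0.03 below the lowest control. Grm2 was 1.44-fold lower (change -0.52, SE 0.20, 95% interval -0.95 to -0.09, limma adjusted p = 0.313). The unadjusted threshold was missed without Ctrl 24h replicate 1 (change -0.45), without Ctrl 24h replicate 2 (-0.51) and without OGD 24h replicate 1 (-0.39).

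Grm3, the group II receptor shared by neurons and astrocytes, read -0.11, -0.38 and -0.83 in Ctrl 7h and -0.42, -0.74 and -0.71 in OGD 7h. These groups overlapped, and the change was -0.18 (SE 0.67, limma adjusted p = 0.921). The Ctrl 24h arrays read -0.25, -0.07 and -0.32 and the OGD arrays -3.95, -0.87 and -0.78. All 3 OGD arrays were below the controls, as for 7.02% of all probes at 24 h. Replicate 1, with an intensity of 4.87, was not well above background, so the probe was measured on 2 of 3 arrays of that group. The fitted change was -1.65 (SE 0.67, 3.14-fold lower, limma adjusted p = 0.331). Without that array it was -0.61 and still under the unadjusted threshold, which was missed without any 1 of the Ctrl 24h arrays (changes of -1.58 to -1.70).

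Of the group III receptors, Grm4 encodes a presynaptic receptor. It read 4.23, 3.86 and 3.49 in Ctrl 7h and 2.65, 3.52 and 3.61 in OGD 7h, so that the groups overlapped. The Ctrl 24h arrays read 3.96, 3.49 and 3.22 and the OGD arrays 1.94, 3.13 and 3.20. No OGD array reached a control at 24 h, as for 7.02% of all probes, although replicate 3 was only 0.02 below the lowest control. The changes were -0.60 (SE 0.39, limma adjusted p = 0.549) at 7 h and -0.80 (SE 0.39, adjusted p = 0.391) at 24 h, and neither passed the unadjusted threshold. The second Grm4 probe gave -0.63 at 7 h and -0.80 at 24 h, close to the first.

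Grm7, whose product sits in the active zone of presynaptic terminals, read 0.25, -0.45 and -0.58 in Ctrl 7h and -0.82, -0.68 and -1.07 in OGD 7h. The groups did not overlap, an order found for 15.5% of all probes at 7 h, and the change was -0.60 (SE 0.31, limma adjusted p = 0.472). In Ctrl 24h it read 0.28, -0.06 and -0.51 and in OGD 24h -1.36, -1.0 and -0.46. Here OGD replicate 3 was above the lowest control, and the other 2 OGD arrays were below every control. Grm7 was 1.79-fold lower (change -0.84, SE 0.31, 95% interval -1.52 to -0.17, limma adjusted p = 0.309). The unadjusted threshold was missed without Ctrl 24h replicate 1 (change -0.65) and without OGD 24h replicate 1 (-0.63).

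Grm8, the third group III gene, read -1.33, -2.20 and -2.08 in Ctrl 7h and -2.63, -2.27 and -1.94 in OGD 7h. In Ctrl 24h it read -1.67, -2.38 and -2.18 and in OGD 24h -3.08, -2.60 and -1.61. At both times the groups overlapped, with replicate 3 of OGD above 2 or more controls. The changes were -0.41 (SE 0.39, 95% interval -1.27 to 0.44, limma adjusted p = 0.693) at 7 h and -0.36 (SE 0.39, -1.21 to 0.50, adjusted p = 0.690) at 24 h.

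**Figure D2:**
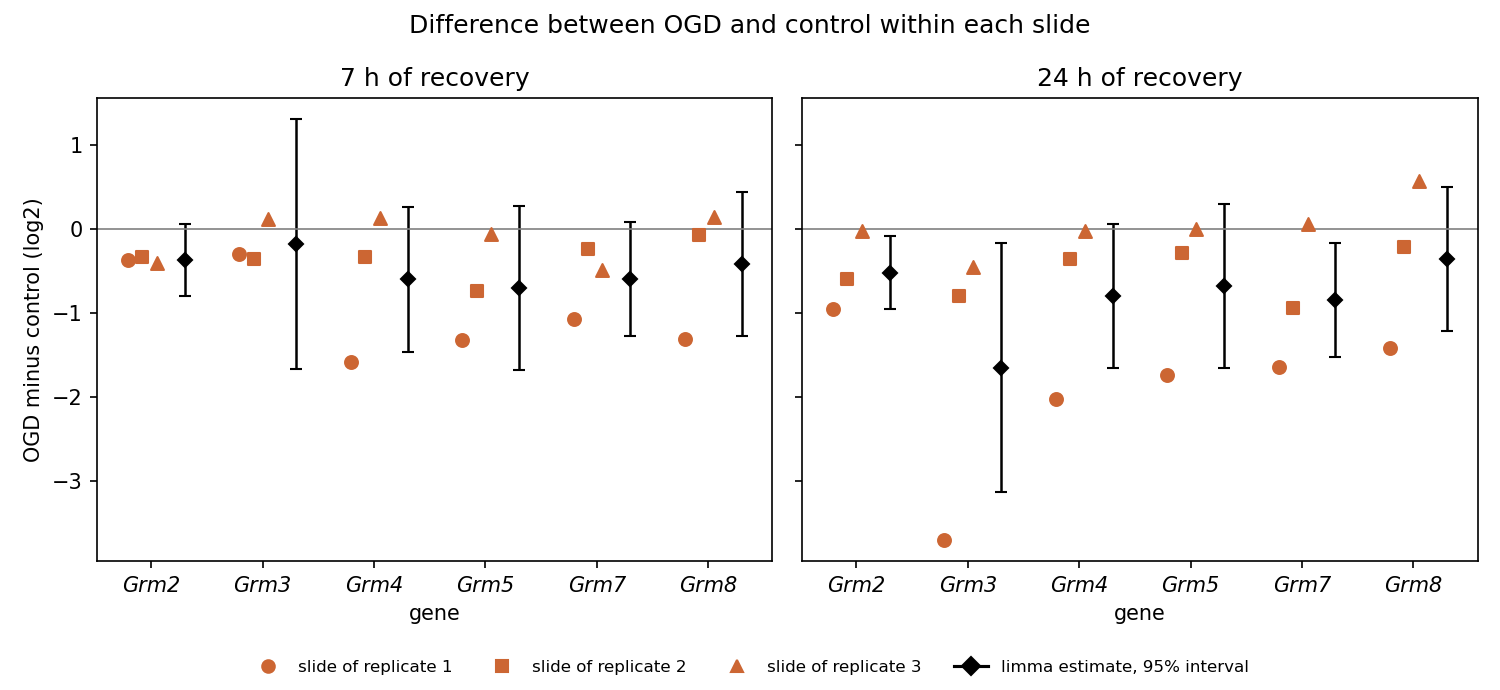
OGD minus control on the log2 scale for each receptor gene, at 7 h (left) and 24 h (right). Orange marks are the differences within the slides of replicates 1, 2 and 3, and black diamonds with bars are the limma estimates with 95% intervals. At 24 h the slide of replicate 1 has the lowest difference of all 6 genes and the slide of replicate 3 the highest.

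The size of the change differed between the slides. Each slide holds 1 array per condition, so slide, culture and array cannot be told apart here. The median difference of the 6 genes was -1.19, -0.34 and 0.03 on the 7 h slides of replicates 1, 2 and 3, and -1.69, -0.47 and -0.01 on the 24 h slides. Both OGD arrays of replicate 1 came from the earlier scan session. With the 9 arrays of the later session alone, which leave 1 OGD array at 7 h and 2 at 24 h, the median change was -0.27 at 7 h and -0.39 at 24 h, and Grm3 was the 1 gene of 6 under the unadjusted threshold at 24 h (-0.61). With the session as a covariate the median change at 7 h was above 0, at 0.0341. Without OGD 24h replicate 1 the count of lower genes was 1 at 24 h and 2 at 7 h (Grm2 and Grm5), where the same 6 arrays were compared with another estimate of the shared spread. Without OGD 24h replicate 3 the count of lower genes was 5 at 24 h. Over all probes, in both directions, 6399 at 7 h and 3288 at 24 h passed the unadjusted threshold without OGD 24h replicate 1. Without OGD 24h replicate 3, 6470 probes passed at 24 h. With all arrays 3590 passed at 7 h and 4160 at 24 h. The part of the scan session and of the low intensity in the result was not tested.

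**Figure D3:**
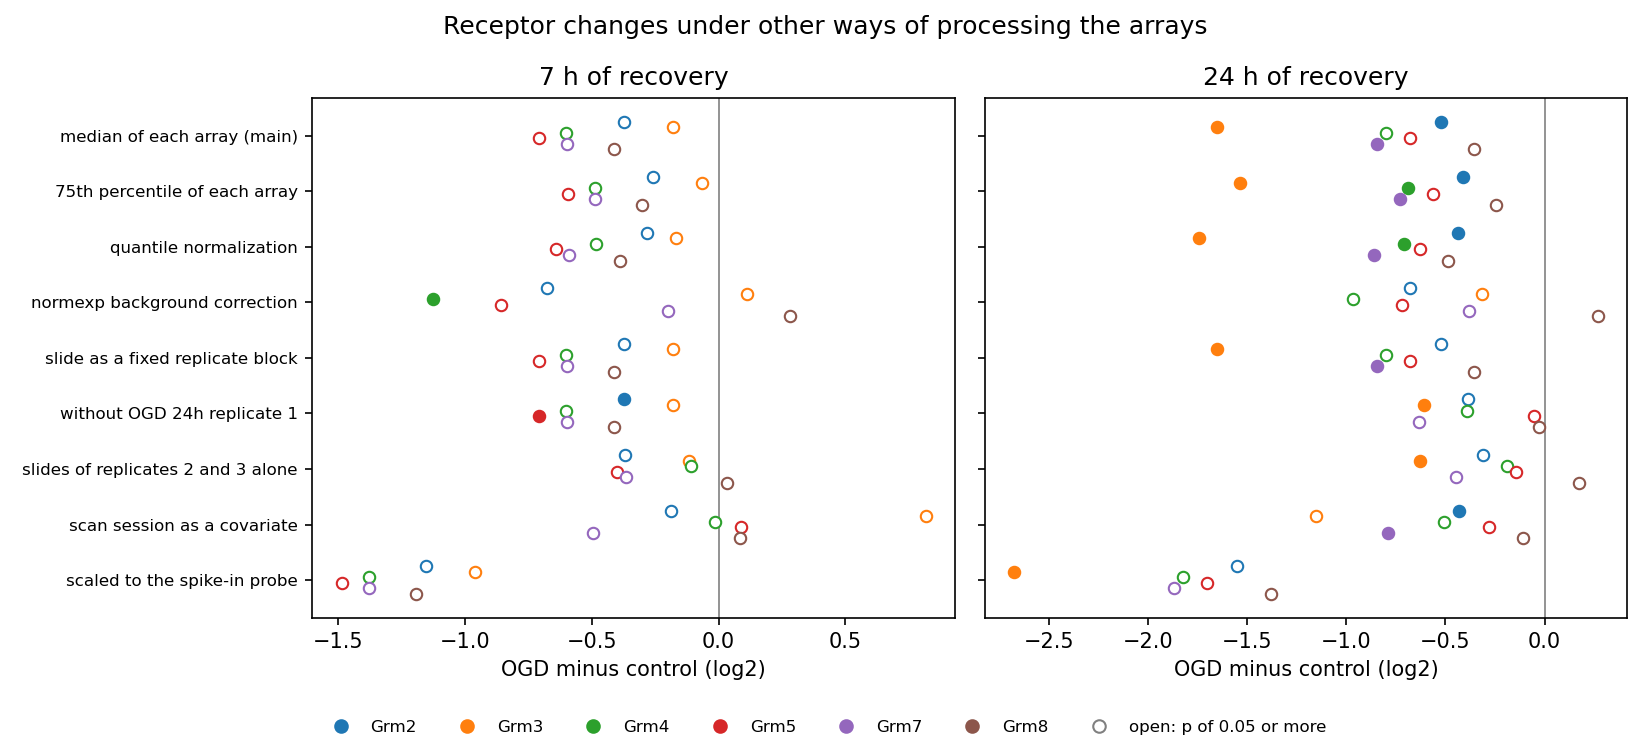
OGD minus control (log2) of each receptor gene under 9 ways of processing, at 7 h (left) and 24 h (right), filled where the unadjusted p is under 0.05. At 24 h the points of most settings lie below 0, and Grm8 crosses it with normexp and with the slides of replicates 2 and 3 alone.

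No difference between the response at 24 h and that at 7 h was detected for any receptor gene. The difference of the effects ran from -1.47 (Grm3, 95% interval -3.57 to 0.62) to 0.06 (Grm8, -1.15 to 1.27), and 0 of 6 genes passed the unadjusted threshold, which 3.58% of all probes passed. The intervals hold differences of more than 2-fold for 5 of the 6 genes, Grm2 (-0.76 to 0.46) being the exception.

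Grm5 also differed between the recovery times within each condition, a comparison chosen after its values were seen. Ctrl 24h was 2.38-fold above Ctrl 7h for Grm5 (change 1.25, SE 0.44, limma adjusted p = 0.255), with all 3 arrays of 24 h above all 3 of 7 h. How many of all probes had such an order, here or in the OGD arrays, was not counted. Of all probes 5.65% were higher in Ctrl 24h at an unadjusted p under 0.05. OGD 24h was above OGD 7h by 1.28 (SE 0.44, limma adjusted p = 0.186), with 2 of 3 arrays above all of OGD 7h, and 9.24% of all probes were higher in OGD 24h at the same threshold. Both passed the unadjusted threshold, the other 5 genes did not in either pair, and time cannot be told apart from slide. Scaling to the spike-in probe, which moved the median of all probes between the control groups by -4.60, turned the Grm5 difference to -3.29.

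The genes through which the receptors act were counted by the same rule, an unadjusted limma p under 0.05, which 7.03% (lower) and 4.79% (higher) of all probes passed at 7 h and 6.19% and 7.51% at 24 h. In the Gq arm, which follows Grm5, 2 of 18 genes were lower and 0 higher at 7 h, against 5 and 2 at 24 h (median changes -0.41 and -0.66). Ptk2b, a calcium-activated tyrosine kinase, was lower at 7 h (adjusted p = 0.347) and at 24 h (change -1.18, adjusted p = 0.288), and on all 6 slides. Daglb, an enzyme that makes the endocannabinoid 2-AG, was lower at 7 h (-0.50). The cation channel Trpc5 (-1.28, adjusted p = 0.254) was lower at 24 h. The phospholipase Plcb1 (-0.93) and Trpc4 (-1.39) were also lower at 24 h, but their OGD and control groups overlapped. On the slides of replicates 1, 2 and 3 the differences were -2.17, -0.77 and 0.14 for Plcb1. For Trpc4 they were -3.26, -0.97 and 0.06. The genes called higher at 24 h were Plcb3 (0.45) and Plcb2. The groups of Plcb3 overlapped, and the Plcb2 probe was well above background on only 2 of 12 arrays. Next in order at 7 h, without passing, were Trpc6 (-1.47) and Plcb4 (0.32).

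In the Gi/o arm, which follows group II and III, 3 of 22 genes were lower and 1 higher at 7 h, against 6 and 0 at 24 h (medians -0.34 and -0.61). Of all probes 7.03% were lower and 4.79% higher at 7 h, and 6.19% and 7.51% at 24 h. Adcy3, an adenylyl cyclase, was lower at 7 h (-1.16, adjusted p = 0.270) and at 24 h (-1.09, adjusted p = 0.275) in all 6 slides. The G protein subunits Gnb5 (-0.75) and Gng7 (-0.57) were lower and Gnai2 was higher (0.47) at 7 h. At 24 h Gng7 (-0.83), Gng3 (-1.19) and Kcnj3, a subunit of the potassium channel opened by these receptors (-0.89), were lower, with Gnaz (-0.77) and Gnb5 (-0.71) also under the threshold. The groups of Gnaz and of Gnb5 overlapped at 24 h. The Gnb5 differences on the slides of replicates 1, 2 and 3 were -1.46, 0.03 and -0.70.

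Among 19 scaffolds and partners, 1 was lower and 0 higher at 7 h, against 2 and 1 at 24 h (medians -0.09 and -0.37). The shares of all probes were 7.03% lower and 4.79% higher at 7 h, and 6.19% and 7.51% at 24 h. Pick1, a PDZ protein that binds the Grm7 receptor, was lower at 7 h (-1.08, limma adjusted p = 0.255) and read -0.45 at 24 h. Homer1, which ties group I receptors to calcium stores, read -0.57 at 7 h and was lower at 24 h (-0.72), as was the postsynaptic scaffold Shank1 (-0.65). Cav1, the caveola protein, was higher at 24 h (0.88). The others with the smallest p, which did not pass, included Shank1 (-0.46) at 7 h and Shank3 (-0.78) at 24 h.

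Of 16 genes of desensitization (receptor kinases, arrestins and RGS proteins, which speed the turn-off of G proteins), 2 were higher and 1 was lower at 7 h, and 1 was higher and 3 lower at 24 h (medians -0.20 and -0.39). Rgs16 was higher at 7 h (1.35, limma adjusted p = 0.230) and at 24 h (0.97, adjusted p = 0.290) in all 6 slides. Rgs8 was higher at 7 h (0.43), and the lower gene at that time, Rgs5, was well above background on 1 of 12 arrays. Rgs17 (-0.52), Rgs14 (-1.39) and Rgs2 (-0.67) were lower at 24 h, and Rgs14 read -0.93 at 7 h. None of these genes passed the adjustment over all probes. Over the 4 lists the counts were 7 lower and 3 higher of 75 genes at 7 h (9.33% and 4%, against 7.03% and 4.79% of all probes). At 24 h they were 16 and 4 (21.3% and 5.33%, against 6.19% and 7.51%). Without OGD 24h replicate 1 these counts were 17 and 5 at 7 h and 8 and 2 at 24 h. The count of lower genes at 24 h was 33 without OGD 24h replicate 3, and 8 or 10 without Ctrl 24h replicate 1 or 2. The number of all probes under the threshold, in both directions, moved too. It was 6399 at 7 h and 3288 at 24 h without OGD 24h replicate 1, against 3590 and 4160 with all arrays. At 24 h it was 6470 without OGD 24h replicate 3, and 2087 or 2577 without Ctrl 24h replicate 1 or 2. By the methods' t-test 15 list genes were lower at 7 h and 3 at 24 h. Limma on each time alone gave 16 and 9. With both fits the count was thus larger at 7 h. Over all probes they passed 4698 and 1923, and 5453 and 2574, in both directions. List genes lower at 24 h numbered 8 with the spike-in probe and 6 with the slides of replicates 2 and 3 alone. They numbered 20 with the 75th percentile and 22 with quantile normalization.

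**Figure D4:**
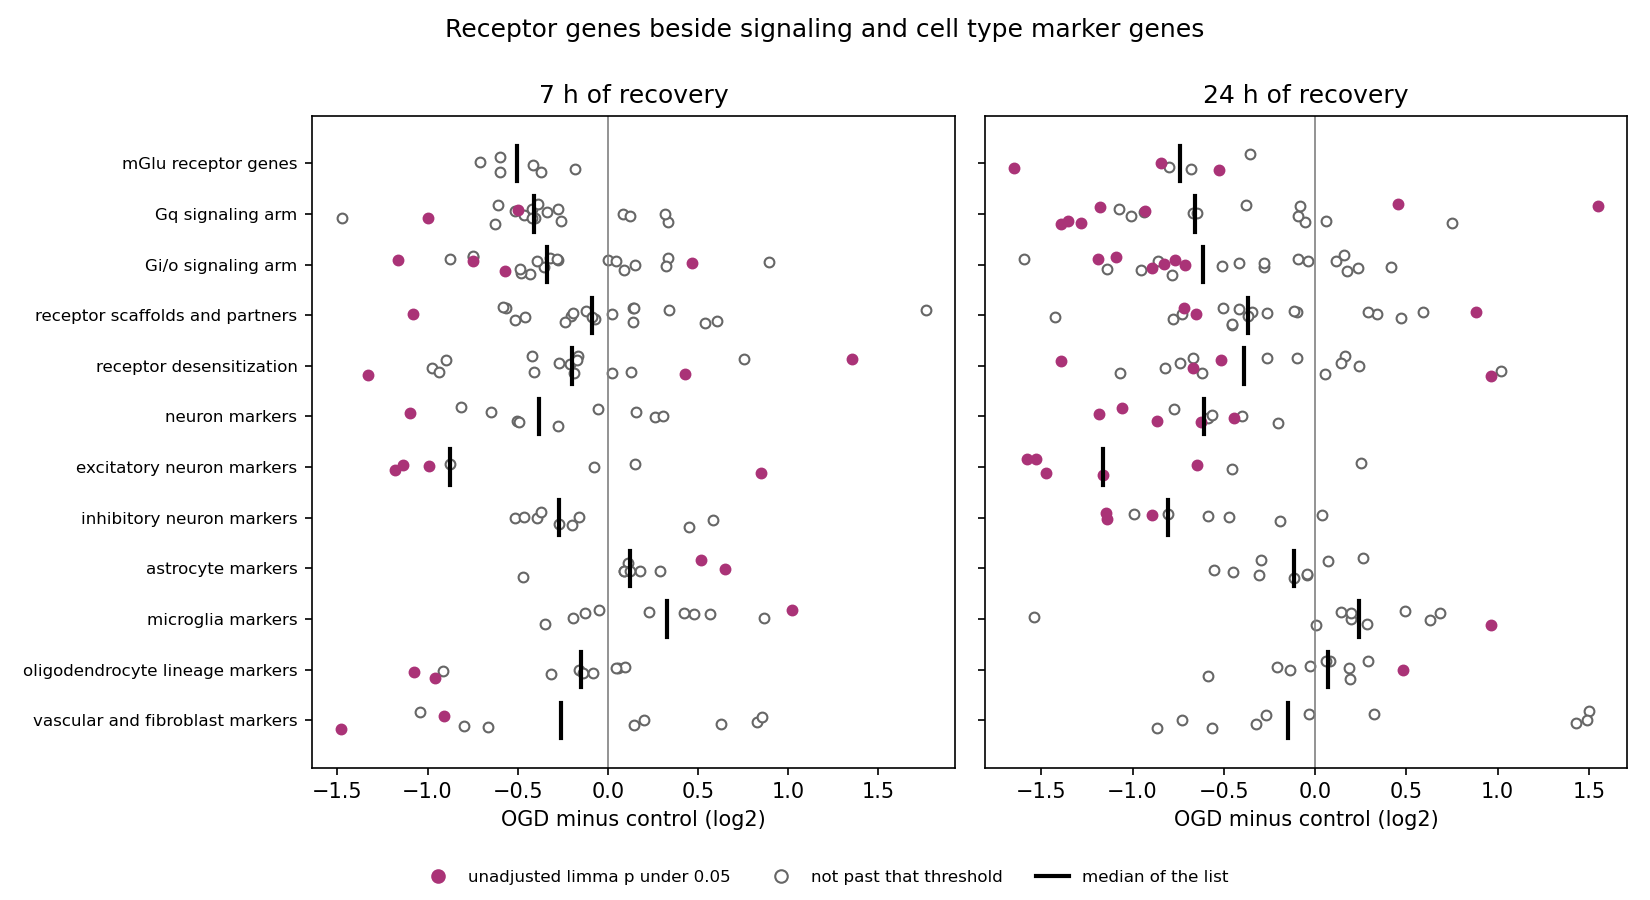
OGD minus control (log2) of every gene of the receptor set, the 4 signaling lists and the 7 cell type marker lists, at 7 h (left) and 24 h (right). Filled points have an unadjusted limma p under 0.05 and black bars are the median of a list, which is -0.74 for the receptor genes at 24 h and -1.16 for the excitatory neuron markers.

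Markers of neurons were counted by the same rule, which 7.03% (lower) and 4.79% (higher) of all probes passed at 7 h and 6.19% and 7.51% at 24 h. At 24 h 5 of 10 neuron markers, 5 of 7 excitatory markers and 3 of 9 inhibitory markers were lower and 0 were higher, with medians of -0.61, -1.16 and -0.81. At 7 h the counts of lower genes were 1, 3 and 0, with medians of -0.38, -0.88 and -0.27, and 1 excitatory marker was higher. The marker counts here and below were not recomputed without OGD 24h replicate 1 or under any other setting. One of the 3 excitatory markers lower at 7 h, Tbr1, was not well above background in either group. The summed relative signal (in multiples of the array median) of the excitatory markers was 84.6 to 117 in Ctrl 7h and 42.5 to 74.5 in OGD 7h, and 104.8 to 166 in Ctrl 24h and 21.5 to 89.2 in OGD 24h. That of the 10 neuron markers was 704 to 936, 695 to 971, 797 to 1006 and 494 to 804 in the same order of groups, and that of the 9 inhibitory markers 603 to 842, 741 to 905, 581 to 1204 and 367 to 658. Such a sum gives most weight to its brightest probes. At 7 h 7 of the 9 inhibitory markers were below control, although their sum ran higher in OGD.

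Markers of glia and vessels were counted in the same way, beside the same shares of all probes (7.03% and 4.79% at 7 h, 6.19% and 7.51% at 24 h). Of 9 astrocyte markers 2 were higher at 7 h (Slc1a3 and Aldoc) and 0 passed in either direction at 24 h, with summed signals of 929 to 1059, 1154 to 1471, 980 to 1169 and 921 to 1226 in the same order. Of 10 microglia markers 1 was higher at each time, with sums of 15.7 to 16.4, 15.8 to 28.8, 20.9 to 25.4 and 25.2 to 35.4 and Ptprc not well above background on any array. Of 10 oligodendrocyte lineage markers 2 were lower at 7 h and 1 was higher at 24 h, with sums of 219 to 229, 115 to 256, 260 to 358 and 298 to 489. Of 10 vascular and fibroblast markers 2 were lower at 7 h and 0 passed at 24 h, with sums of 42.6 to 143, 59.2 to 184, 36.9 to 140 and 128 to 234, and Tek was not well above background on any array. The part of these cell types in the receptor values was not tested.

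The genes whose relative signal followed each receptor most closely over the 12 arrays were taken from 10896 named genes well above background on all of them. They were Ryr2 (Pearson r 0.953) and Zfp112 (0.947) for Grm2, Lgi3 (0.958) and Abcc8 (0.951) for Grm3, and Tram1l1 and Klhl23 (both 0.977) for Grm4. For Grm5 they were Fbxo16 (0.991) and Arhgap1 (0.988), for Grm7 Slitrk4 (0.954) and Zfp612 (0.946), and for Grm8 Fam53b (0.969) and Mtres1 (0.961). The value of Lgi3 rests on the array with the low Grm3 signal, since the Spearman rho was 0.364. Between the receptor genes r ran from 0.315 (Grm4 and Grm5) to 0.816 (Grm4 and Grm8). All points share the same 12 arrays and their groups, so these values are a description.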

How the data were processed

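RNA (200 ng per culture) was labeled with Cy3 and hybridized to Agilent rat one-color arrays by the authors. The deposited intensity of each spot is the processed signal of Feature Extraction, which had subtracted the background and corrected trends across the array with no scaling of one array to another. A table of log2 values, median-centred by the authors with BRB-ArrayTools, was also deposited (column medians 7.57 to 7.72). On each array 99.0% to 99.7% of probes differed from the log2 intensity by the same constant, within 0.01.

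Outlier spots were left out, log2 was taken, replicate spots were averaged per probe, and the array median was subtracted. No filter on signal was applied. Arrays have no counts, so their number limits the precision. The 4 groups entered 1 limma model (limma 3.58.1, R 4.3.3) with two-sided p-values adjusted by Benjamini-Hochberg over 30367 probes, and genes were called at an unadjusted p under 0.05. The methods of the study set that threshold for a t-test and also require a 2-fold change. The procedure was tested on simulated data with independent noise and larger changes than those of the receptor genes. These data held no slide, scan session or dim array, so they do not bear on such effects. Replicates were independent cultures per the methods of the study, and the labels give only a replicate number. Whether same-numbered samples share a preparation is not stated.

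Named were all members, the 4 genes of each signaling list with the smallest p at each time, and the 2 genes most correlated with each member, apart from a few items not reported here. The rest of the genes called in a list were named after their values were seen. Members and lists were chosen with earlier results of these data known. Each gene is represented by its probe with the highest mean log2 intensity. Listed genes with no probe under their names, such as Prkca, Gng2, Gng4, Adcy9, Elfn2, Dlx2 and Sox9, were left out.

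The alternatives were the 75th percentile, quantile normalization, the 1 usable spike-in probe of 10, normexp background correction with an offset of 50 on the median spot and background signals (mean spot signals were not used here), a floor of 10, a filter on dim probes (well above background on at least 3 arrays), the deposited log2 values, the methods' t-test, limma on each time alone, the slide as a block, the mean over probes, outlier spots kept and each array left out. Scan session, as a covariate or restricted to the later one, and the slides of replicates 2 and 3 alone were added after seeing the data, as was the comparison of Grm5 between times.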

Additional observations from a re-analysis of the deposited data

Results flagged for a closer look

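Kcnj3, a subunit of the G protein-gated potassium channel opened by Gi/o-coupled receptors, was the 1 of 75 signaling genes (1.33%) under the unadjusted threshold for a difference between the 7 h and 24 h responses to OGD, which 3.58% of all probes passed. The interaction was -0.94 on the log2 scale (limma, under the unadjusted threshold of 0.05, adjusted p = 1.00), with a change of 0.04 at 7 h and -0.89 at 24 h. It did not pass adjustment over all probes.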

How the results depend on the processing

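All 6 receptor genes stayed below control in every fit that left out 1 array (72 of 72 values at each time). Leaving out an array of 1 time cannot move the estimate of the other time, so many of these values repeat the main one. Over the other settings 90 of 96 values at 7 h and 94 of 96 at 24 h were below 0. Of these settings the methods' t-test, limma on each time alone, the slide as a block and the filter on dim probes left the estimates unchanged. The values above 0 came from normexp, the scan session as a covariate and the slides of replicates 2 and 3 alone. The number of genes lower at 24 h (3 as reported) was 0 with normexp and with the methods' t-test, and 1 with the spike-in probe, limma on each time alone, the later scan session alone and the slides of replicates 2 and 3 alone. It was 4 with the 75th percentile or quantile normalization, and 0 (without Ctrl 24h replicate 1) to 5 (without OGD 24h replicate 3) with 1 array left out. The number of all probes under the threshold at 24 h, in both directions, was 4160 as reported. It ran from 542 with the spike-in probe to 6470 without OGD 24h replicate 3. The number lower at 7 h (0 as reported) was 1 with normexp (Grm4), the methods' t-test (Grm2) and limma on each time alone (Grm5), and 0 to 2 with 1 array left out. No setting called a gene higher. The interaction count was 1 (Grm3) with the scan session as a covariate and 0 otherwise. That covariate turned the median change at 7 h to 0.0341. The spike-in probe moved the medians to -1.28 at 7 h and -1.76 at 24 h, beside -0.83 and -1.01 over all probes, and the 75th percentile moved the median of all probes to 0.06 and 0.12. With 1 array left out the medians ranged from -0.64 to -0.34 at 7 h and from -1.01 to -0.39 at 24 h. The Grm5 difference between control groups turned to -3.29 with the spike-in probe, and it missed the threshold without Ctrl 7h replicate 3 (1.099) or Ctrl 24h replicate 2 (1.14). The causes were not tested.

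Same-numbered samples share a slide and a number, with correlations of their deviations of -0.05 to 0.11 at 7 h and -0.01 to 0.17 at 24 h. Between different numbers the correlations were -0.08 to 0.07 at 7 h and -0.18 to 0.11 at 24 h. The numbers were not taken to pair the samples. With 3 arrays per group the correlations cannot settle whether same-numbered samples share a preparation. With the slide as a fixed replicate block 2 genes were lower at 24 h (Grm3 and Grm7) and 0 at 7 h, with medians of -0.51 and -0.74, and with the slide as a random block 3 and 0. Grm3 was not well above background on 1 array, and Grm8, well above it on all 12, had intensities down to 8.88.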
